A study of Mus musculus with 31 samples.

Results

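Some 8829 Rad21 sites on the mouse autosomes carried a peak in every Rad21 ChIP-seq (chromatin immunoprecipitation and sequencing) library of the study, in 2 B-cell sources and with or without stimulation. They were chosen by the presence and width of Rad21 peaks in the deposited lists. Candidates were the peaks of at least 200 and under 1000 bp of the first unstimulated CH12F3 replicate, and a site was counted as common when a peak of 200 bp or more overlapped it by at least 1 base in each of the other 15 Rad21 lists. The common sites were 18.4% of the 48013 peaks of that width in the list, and they covered 4.58 Mb, or 0.185% of the autosomes. The remaining 39184 peaks are called the other sites here. All 16 Rad21 lists together held 5219627 peaks on the autosomes.

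Rad21 is a subunit of cohesin, the ring-shaped complex that holds DNA strands together and reels chromatin into loops, and NIPBL is the protein that loads cohesin and drives its movement along DNA. Loops grow until cohesin meets a barrier, of which the DNA-binding protein CTCF is the best known in mammals, and cohesin ChIP-seq peaks therefore gather at CTCF sites in many cell types. In B cells, loop extrusion brings the donor and acceptor switch regions of the immunoglobulin heavy chain (IgH) locus together for class switch recombination. The design text names this process as the subject of the study.

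Cells of every group lacked AID, the enzyme that starts class switching, and the labels give C57BL/6 as their strain. Rad21 was mapped in stimulated cells named i3CBEs (n = 3), in stimulated (n = 4) and unstimulated (n = 3) cells of CH12F3, a mouse B lymphoma line, and in stimulated (n = 3) and unstimulated (n = 3) mature splenic B cells. NIPBL was mapped in stimulated (n = 3) and unstimulated (n = 3) splenic B cells and in stimulated (n = 2) and unstimulated (n = 2) CH12F3 cells. Stimulation was anti-CD40 and IL-4 for 48 h in splenic cells, and anti-CD40, IL-4 and TGF-β for 24 h in CH12F3 and i3CBEs. Sample titles name the line CH12F3NCdel, and the labels expand neither that name nor i3CBEs, whose source they give as CH12F3. CH12F3 is a single tumour line, so its libraries show that line and not B cells at large, while the splenic cells were primary. Nothing in the labels tells whether replicates came from different animals or cultures, so every p-value here measures only how far these samples vary, and that variation may be technical.

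Each library came as a list of peaks with a fold enrichment over background from the authors' peak caller, a value of the peak in its own list that serves here only to describe and rank peaks within a list. No list holds read counts, so depth is unknown. Rad21 lists held between 39859 and 1188387 autosomal peaks, of which 21378 to 230352 were 200 bp or wider. Splenic Rad21 lists were uneven, with 145450, 1107605 and 1188387 peaks in the stimulated replicates and 281542, 1124160 and 147483 in the unstimulated replicates. The 5 input samples of the series were not analysed here.

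The number of lists that share a site is the value that chose the members, and 15 is the highest it can take, so its distribution is a description. Sites with a peak in 0 to 14 of the other lists made up between 4.24% and 7.14% of all sites at each count, and the common sites made up 18.4%. Of 3428 sites that fell short by a single list, 3234 (94.3%) had a peak narrower than 200 bp in the list they lacked. The list lacked was most often that of i3CBEs replicate 1, with 1043 sites, then unstimulated splenic replicate 3, with 1002 sites, and i3CBEs replicate 2, with 546 sites. The number of common sites therefore depended on single lists and on the width minimum. Unstimulated splenic replicate 3 held 43376 peaks of 200 bp or more. The list of i3CBEs replicate 3 held 22118 and was the one lacked at 248 sites. The part of list length was not tested.

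**Figure D1:**
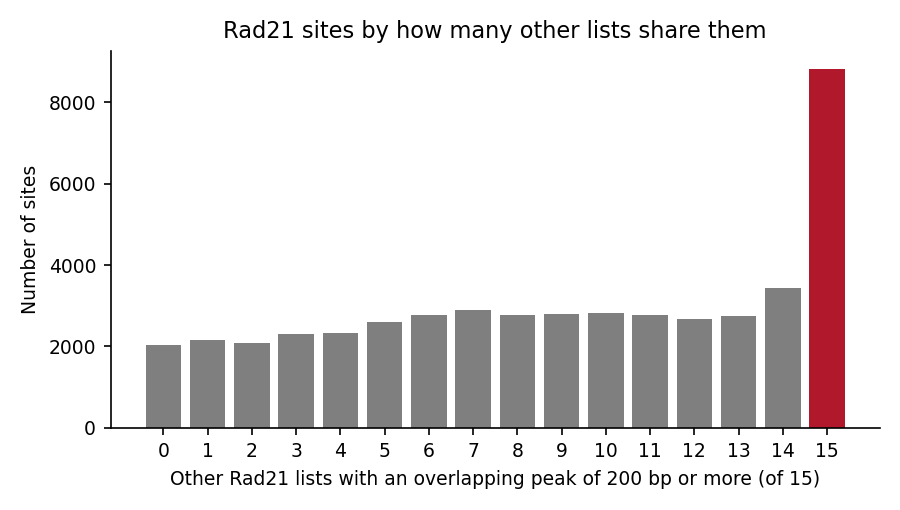
Number of Rad21 sites of at least 200 and under 1000 bp in the first unstimulated CH12F3 list (vertical axis) by the number of the other 15 Rad21 lists with an overlapping peak of 200 bp or more (horizontal axis). The red bar holds the 8829 common sites, and the next highest bar, at 14 lists, holds 3428.

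The width limits cut through a continuous range of peaks. Just inside the lower limit lay chr1:98743378-98743578, 201 bp wide with a fold enrichment of 8.44, and chr7:88934359-88934567, 209 bp wide with a fold enrichment of 8.44. Just outside it lay chr9:7292236-7292433, 198 bp and 6.58-fold, and chr3:141854618-141854816, 199 bp and 6.70-fold, which otherwise met the rule. At the upper limit, chr9:121922852-121923850 (7.63-fold) and chr17:6982010-6983008 (12.4-fold) were the widest members. The peaks chr1:72900917-72901916 (1000 bp, 23.5-fold) and chr4:9592520-9593519 (1000 bp, 12.3-fold) were not. Only 13 peaks were left out for being under 200 bp, and 918 for being 1000 bp or wider. All coordinates are in mm9, the build in the submitters' processing notes. No genome or annotation of that build was at hand, so sites are given by position and without genes.

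The typical common site was one of the stronger Rad21 peaks of each list, which is a description, since presence in these lists chose them. Its median percentile by fold among peaks of 200 bp or wider ran between 73.3 and 97.6 over the lists. Weak members were present too, and in 5 of the 16 lists the 5th percentile of the common sites lay below the median of those peaks. In the list they were taken from, their median fold enrichment was 15.0 (5th to 95th percentile 7.22 to 26.0), against 4.35 (3.18 to 12.4) at the other sites. Their median width was 488 bp, against 295 bp at the other sites. Across lists the median fold of the peaks at common sites was 10.7, 10.3 and 9.36 in i3CBEs. It was 20.0, 12.7, 11.3 and 11.9 in stimulated CH12F3 and 15.0, 13.8 and 14.9 in unstimulated CH12F3. In spleen it was 7.76, 15.6 and 10.6 after stimulation and 17.9, 15.9 and 8.25 without it. The replicates of each splenic group differed widely, and stimulated and unstimulated values overlapped in both cell types.

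When each library was reduced to its 20000 strongest peaks by −log10 p-value, 89.2% to 96.8% of the common sites still overlapped one of them, against 16.1% to 26.4% of the other sites. Peak centres lay close together, with a median distance of 43 to 96 bp between the centre of a common site and that of the overlapping peak in another list. Peak width varied more. The share of common sites whose peak reached 1 kb in another list ran between 0.317% in i3CBEs replicate 1 and 32.5% in stimulated splenic replicate 2. The median width of these peaks ran between 286 bp and 812 bp in the same 2 lists.

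The ranking of the common sites by fold enrichment was closer between most pairs of lymphoma lists than between these and spleen. Spearman's rho over the 8829 sites was 0.872 to 0.898 between i3CBEs replicates, 0.601 to 0.844 (median 0.770) between stimulated CH12F3 replicates and 0.832 to 0.877 between unstimulated CH12F3 replicates. It was 0.728 to 0.763 between stimulated and 0.809 to 0.876 between unstimulated splenic replicates. Between i3CBEs and CH12F3 it was 0.715 to 0.870, and between stimulated and unstimulated CH12F3 0.723 to 0.891, so both ranges overlapped those within groups. Stimulated and unstimulated spleen gave 0.600 to 0.708, below the range within either splenic group. Between spleen and the lymphoma lists rho was 0.400 to 0.675 (median 0.550). Within that range the 30 pairs with a stimulated splenic list had a median of 0.646 (0.542 to 0.675), and the 30 pairs with an unstimulated splenic list had a median of 0.481 (0.400 to 0.559). These correlations are descriptions over sites that share libraries and peak callers.

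Ranks were used to name sites that differed between cell types. At 285 common sites (3.23%) every splenic list ranked the site higher than every CH12F3 and i3CBEs list, and at 293 (3.32%) every splenic list ranked it lower. The rule for members used these same Rad21 lists, so the counts are given without a test. For comparison, groups did not overlap at 1247 sites (14.1%) ranked higher and 1164 (13.2%) ranked lower in stimulated against unstimulated spleen. The counts were 167 (1.89%) higher and 171 (1.94%) lower in stimulated against unstimulated CH12F3, and 447 (5.06%) higher and 465 (5.27%) lower in i3CBEs against stimulated CH12F3. Groups of 3 separate more easily than groups of 6 and 10, so these shares are not comparable in size. Small groups also separate at some sites by the order of lists alone, and how often was not worked out. The counts between groups of 3 or 4 lists therefore do not by themselves show that sites changed.

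The 5 sites with the largest rank difference in favour of spleen were chr7:113198674-113199026, chr13:51911281-51911589, chr7:113440505-113440908, chr19:34622515-34622801 and chr7:52994753-52995115. At chr7:113440505-113440908 the fold was 17.4, 23.8 and 26.0 in stimulated spleen and 36.1, 25.5 and 15.3 in unstimulated spleen. The same site had 6.72, 8.24 and 7.51 in i3CBEs, 16.8, 7.99, 9.05 and 5.10 in stimulated CH12F3, and 9.31, 9.83 and 10.4 in unstimulated CH12F3. All but 1 of the lymphoma lists lay below the lowest splenic value. On the same chromosome, chr7:113198674-113199026 had 15.8, 20.9 and 22.6 in stimulated and 35.8, 29.8 and 16.6 in unstimulated spleen, against 5.21 to 15.5 in the lymphoma lists. Here the fold values themselves did not overlap. None of the 5 sites had its centre in one of the 20000 strongest NIPBL peaks of any library. Fold is each list's own value here too, and the sites were chosen on rank within each list.

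The 5 sites with the largest difference in the other direction were chr11:3983154-3983902, chr17:35432807-35433134, chr14:87614626-87615303, chr14:46392077-46392773 and chr3:144043930-144044292. At chr11:3983154-3983902 the fold was 7.12, 10.4 and 4.82 in stimulated and 9.50, 5.83 and 3.16 in unstimulated spleen. In the lymphoma lists it was 22.0, 20.5 and 18.5 in i3CBEs, 36.7, 22.5, 20.1 and 16.3 in stimulated CH12F3, and 27.7, 22.2 and 25.0 in unstimulated CH12F3. The highest splenic value lay below the lowest lymphoma value. At chr17:35432807-35433134 stimulated spleen had 5.23, 9.77 and 6.04 and unstimulated spleen 10.1, 8.50 and 6.12, against 13.5 to 36.9 in the lymphoma lists. Among the common sites of each list, chr11:3983154-3983902 stood at a mean rank percentile of 12.4 in spleen and 94.2 in the lymphoma lists. Of these 5 sites chr3:144043930-144044292 had its centre in a top NIPBL peak in 4 libraries, chr17:35432807-35433134 in 1 and the other 3 in none.

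NIPBL was not used to choose the sites, so it can be tested at them. At the centres of common sites, a top NIPBL peak (one of the 20000 strongest of its list) was present at 7.86%, 8.55% and 8.86% of sites in stimulated spleen and 11.0%, 7.34% and 7.55% in unstimulated spleen. CH12F3 had 5.78% and 4.21% after stimulation and 13.4% and 4.45% without it. These top peaks covered 0.205% to 0.683% of autosome bases, so the common sites held them far more often than their length would give, although most common sites held none. In 6939 common sites (78.6%) no library had a top NIPBL peak at the centre, and in 98 (1.11%) all 10 did. At the other sites these shares were 81.7% and 1.33%. Divided by the share of bases covered, the share at common sites was 15.1 to 17.8 times the background in splenic and 18.7 to 20.8 times in CH12F3 libraries (two-sided exact permutation p = 0.00952, the smallest for 6 against 4 libraries, adjusted p = 0.0243 over 23 library tests). The other sites split in the same direction, with 14.0 to 16.8 times in splenic and 17.3 to 17.7 times in CH12F3 libraries. The difference between cell types was therefore not particular to the common sites. The covered bases themselves ran 0.462% to 0.619% in spleen and 0.205% to 0.683% in CH12F3, and their part in this difference was not tested.

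NIPBL was centred on the common sites. Over the 10 libraries the share was 7.90% at the centre and 1.65% at 2 kb to the side, a difference of 6.26 ± 2.20 percentage points (SD, n = 10) that was positive in 10 of 10 libraries (two-sided exact sign-flip permutation test, p = 0.00195, the smallest that 10 libraries allow, and adjusted p = 0.00642). The same difference was 4.96 points at the other sites, 1.30 ± 0.641 points less than at the common sites, again in 10 of 10 libraries (exact permutation p = 0.00195, adjusted p = 0.00642). This comparison with 2 kb away was chosen after the data were seen.

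**Figure D2:**
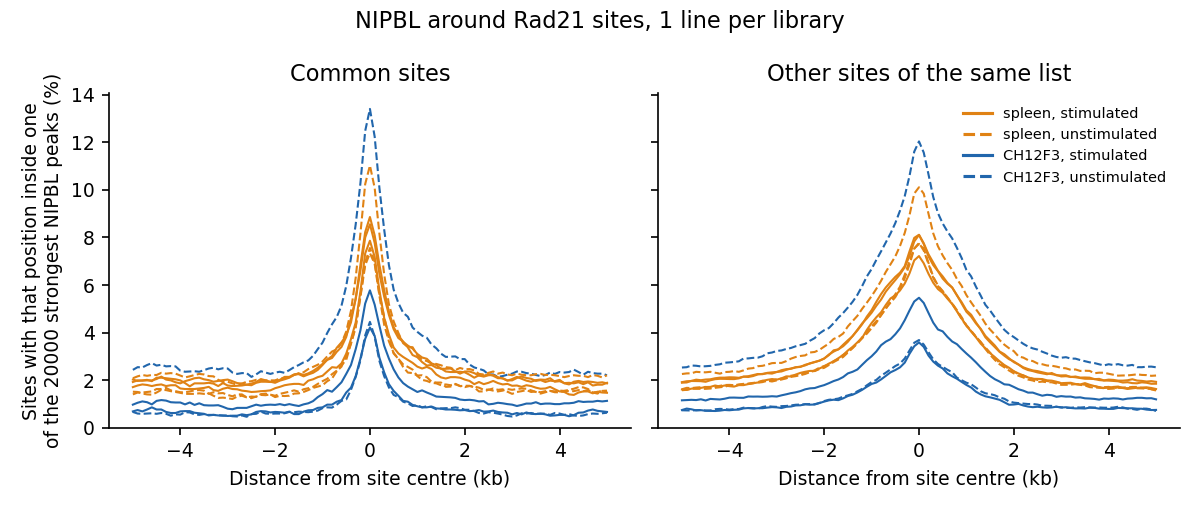
Percent of common sites (left) and other sites (right) at which a given distance from the site centre, in kb, lies inside one of the 20000 strongest NIPBL peaks; each line is 1 library. Every line peaks at the centre, at 4.21% to 13.4% of common sites and 3.59% to 12.0% of other sites.

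Over all sites, the excess of NIPBL at common sites was small. The share at the centre was 7.90% at common sites and 7.38% at the other sites, a difference of 0.522 ± 0.519 points (SD, n = 10) that was positive in 8 of 10 libraries (exact permutation p = 0.0137, adjusted p = 0.0314). It was 0.358 points in the 6 splenic libraries (4 of 6 positive, exact p = 0.156) and 0.767 points in the 4 CH12F3 libraries (4 of 4 positive, exact p = 0.125, the smallest possible). The sign turned when 10000 top peaks were taken (−0.309 points) or any overlap of a base was counted (−0.0445 points). With all deposited NIPBL peaks, which covered 5.13% to 9.84% of bases, the shares were 38.8% at common and 29.6% at other sites, a difference of 9.25 points.

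The other sites are a mixture, and NIPBL at them varied with how many Rad21 lists shared the site. Mean NIPBL shares over the 10 libraries were 0.530% at the 2037 sites with no other list, 6.88% at sites with 5 lists, 10.9% at sites with 8 lists, 9.79% at sites with 12 lists and 6.46% at sites with 14 lists. Common sites, at 7.90%, were above the sites in 14 lists by 1.44 points, in 10 of 10 libraries (exact permutation p = 0.00195, adjusted p = 0.00642). They were below the means for 6 to 12 lists. The median Rad21 fold went up steadily along the same series, with 3.30 at 0 lists, 4.47 at 8 lists and 10.2 at 14 lists.

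Within quartiles of Rad21 fold, the common sites carried NIPBL more often than the other sites in 3 of 4. Quartiles were of fold enrichment in the list the sites came from and were drawn after the data were seen. In the highest quartile (9.61-fold and above; 7597 common and 4406 other sites) a top NIPBL peak lay at 6.58% of common and 2.52% of other sites. In the third quartile (5.12 to 9.61-fold; 1033 and 10970 sites) it lay at 14.5% of common and 4.73% of other sites. In the second (3.67 to 5.12-fold; 175 and 11828 sites) it lay at 26.2% of common and 9.87% of other sites. Each of these 3 differences was positive in 10 of 10 libraries (exact permutation p = 0.00195, adjusted p = 0.00642 each). Only 24 common sites fell in the lowest quartile, with 10.4% against 9.13% at other sites (6 of 10 libraries, exact permutation p = 0.42). Folds were not equal within quartiles, with a median of 16.0 at common and 12.0 at other sites in the highest quartile, 8.32 and 6.71 in the third, and 4.41 and 4.14 in the second. The part of that remaining difference was not tested.

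Among the common sites themselves, NIPBL was more frequent in the second quartile of Rad21 fold than in the highest. The 24 sites of the lowest quartile, at 10.4%, lay below both the second and the third. The share in the highest fold quartile minus that in the second quartile was −19.6 ± 5.63 points (SD, n = 10), negative in 10 of 10 libraries (exact permutation p = 0.00195, adjusted p = 0.00642). The 88 common sites with a top NIPBL peak in all 10 libraries and no fold over 100 had a median Rad21 fold of 9.84 in the list they came from, against 15.2 at the 6939 without NIPBL. Site width differed along with these groups. In the second quartile common sites had a median width of 594 bp and other sites 293 bp, and in the highest quartile 489 bp and 359 bp. A part of width in the NIPBL difference was not tested.

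**Figure D3:**
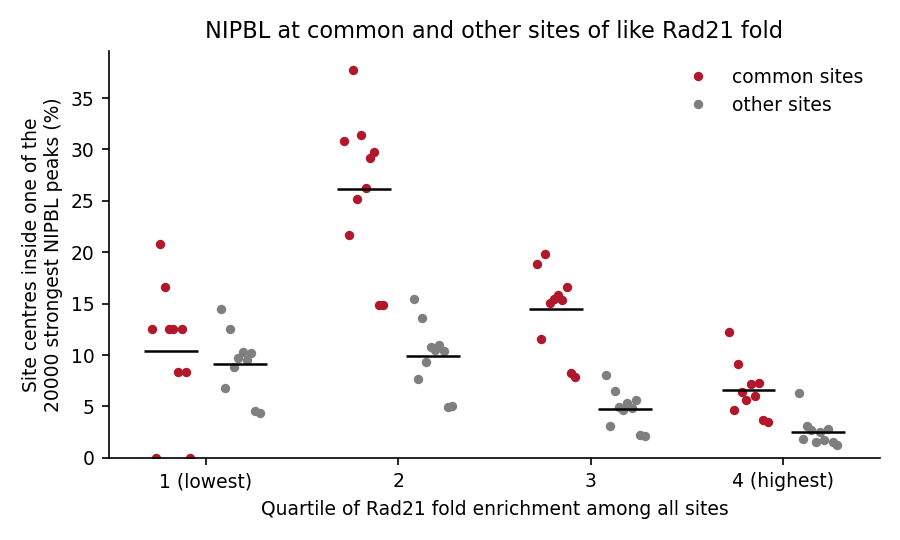
Percent of site centres inside one of the 20000 strongest NIPBL peaks (vertical axis, from 0) by quartile of Rad21 fold enrichment among all 48013 sites (horizontal axis), with 1 point per NIPBL library and a line at the mean. Common sites (red, left) lie above other sites (grey, right) in quartiles 2 to 4, with means of 26.2% against 9.87%, 14.5% against 4.73% and 6.58% against 2.52%.

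Site classes with a peak of 200 bp or more only in lists of a single cell type gave a further contrast. Narrower peaks did not count, so they may be present in the lists of the other cell type. At 83 sites all CH12F3 and i3CBEs lists and no splenic list had a peak of that width. There splenic libraries had no top NIPBL peak at the centre, where 0 of 83 sites allows a share of up to 3.61% from counting alone. Common sites had 8.53% in the same libraries (6 of 6 higher, exact permutation p = 0.0312, the smallest for 6 libraries, adjusted p = 0.0599). In CH12F3 libraries common sites had 6.96% and the lymphoma sites 6.33% (2 of 4 higher, exact permutation p = 1). At 785 sites of the first unstimulated splenic list, all splenic lists and no lymphoma list had a peak of 200 bp or more. Splenic NIPBL was higher there than at common sites, 8.53% at common against 14.1% at splenic sites (lower in 6 of 6 libraries, exact permutation p = 0.0312, adjusted p = 0.0599). CH12F3 NIPBL had 6.96% at common and 1.53% at splenic sites (4 of 4 higher, exact permutation p = 0.125, the smallest possible). None of these 4 differences passed an adjusted p of 0.05.

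Splenic NIPBL was more frequent at common sites ranked higher for Rad21 in spleen than at those ranked lower, by more than CH12F3 NIPBL was. At the sites ranked higher in spleen, splenic libraries had a top NIPBL peak at 7.02%, 7.37% and 8.07% of sites after stimulation and 13.3%, 10.2% and 9.12% without it. At the sites ranked lower in spleen these libraries had 2.05%, 2.39% and 3.07% after stimulation and 2.05%, 0.683% and 1.02% without it. All 6 splenic libraries had less NIPBL at the sites ranked lower than at all common sites. At the sites ranked higher the 3 stimulated libraries also had less than at all common sites, while the 3 unstimulated libraries had more. In CH12F3 the mean was 5.26% at those ranked higher and 5.12% at those ranked lower in spleen. The difference between both kinds of site was 7.30 ± 2.74 points in spleen (SD, n = 6) and 0.144 ± 1.47 points in CH12F3 (SD, n = 4). Spleen exceeded CH12F3 by 7.16 points, with no overlap between libraries (two-sided exact permutation p = 0.00952, the smallest for 6 against 4 libraries, adjusted p = 0.0243). The sites ranked higher in spleen had a lower Rad21 fold in the CH12F3 list they came from (median 10.8) than those ranked lower (19.0), and the part of that difference in the NIPBL shares was not tested.

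A like split was made by Rad21 rank in stimulated against unstimulated spleen. At the 1247 common sites ranked higher for Rad21 in stimulated than in unstimulated spleen, NIPBL lay at 4.41%, 4.81% and 5.29% in stimulated and 5.05%, 2.17% and 2.33% in unstimulated spleen. At the 1164 ranked lower it lay at 9.88%, 10.1% and 10.7% in stimulated and 15.5%, 12.5% and 12.2% in unstimulated spleen. NIPBL was therefore more frequent at the sites ranked lower in both states, with differences (ranked higher minus ranked lower) of −5.36 ± 0.115 points in stimulated and −10.2 ± 0.282 points in unstimulated spleen (SD, n = 3 each). The gap was smaller after stimulation by 4.84 points, with no overlap between libraries (exact permutation p = 0.1, the smallest for 3 against 3, adjusted p = 0.164). CH12F3 NIPBL libraries, with differences of −1.90 to −3.21 points between both kinds of site, had the same sign. The sites ranked higher in stimulated spleen had a median Rad21 fold of 16.8 in the CH12F3 list they came from, against 12.8 at those ranked lower, and the part of that difference was not tested. Both splits by rank were chosen after the data were seen.

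**Figure D4:**
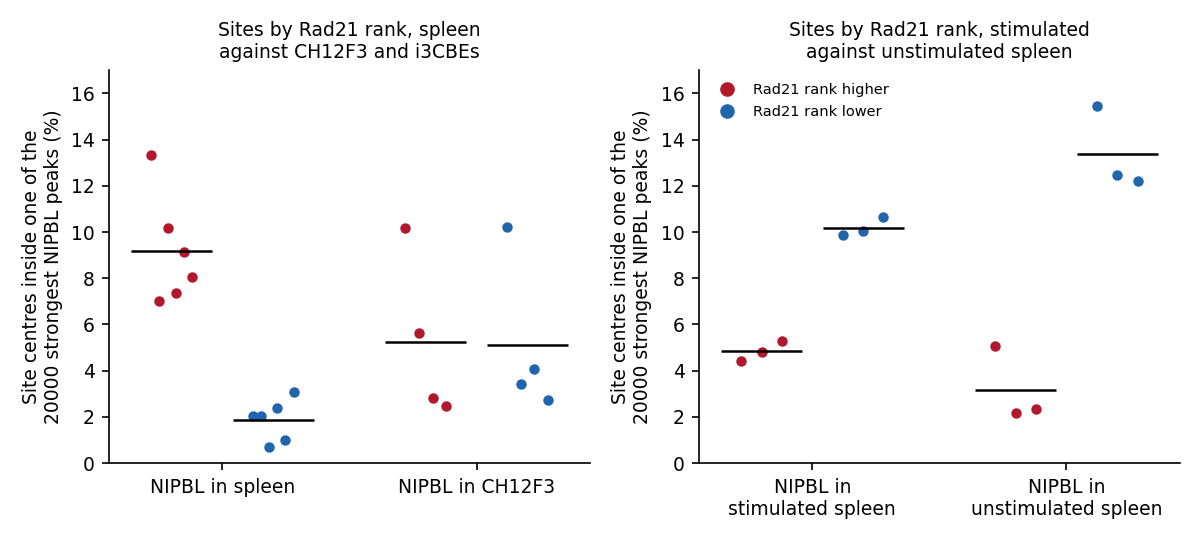
Percent of common-site centres inside one of the 20000 strongest NIPBL peaks, with 1 point per NIPBL library and a line at the mean. Left, sites that every splenic Rad21 list ranked higher (red) or lower (blue) than every CH12F3 and i3CBEs list, with splenic means of 9.18% against 1.88%; right, sites that every stimulated splenic Rad21 list ranked higher (red) or lower (blue) than every unstimulated one, where blue lies above red in each state.

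Stimulation did not change the overall share of common sites with NIPBL beyond the spread between libraries. Stimulated spleen had a share of 8.42 ± 0.511% and unstimulated spleen 8.64 ± 2.07% (SD, n = 3 each), a difference of −0.215 points (exact permutation p = 1). The sign turned when 1 library was left out, between −0.865 and 0.976 points. Stimulated CH12F3 had 4.99 ± 1.11% and unstimulated CH12F3 8.93 ± 6.33% (SD, n = 2 each; exact permutation p = 0.667, with 0.333 the smallest possible). Both CH12F3 replicates numbered 2 were called with a named control and those numbered 1 were not. Replicate 1 had 5.78% in stimulated and 13.4% in unstimulated cells, and replicate 2 had 4.21% and 4.45%, so most of the gap stood in replicate 1. Its top peaks had a median width of 72 bp in stimulated and 669.5 bp in unstimulated cells. They covered 0.309% and 0.683% of bases. Divided by the bases covered, the shares were 18.7 and 19.6 times in replicate 1, and 20.5 and 20.8 times in replicate 2. The part of peak width in the gap was not tested.

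Splenic NIPBL changed with stimulation about as often in 10 kb bins with a common site as in all bins. Coverage was taken over the whole bin, so a change can lie away from the site. For bins of 10 kb along the genome, the percent of bases under top peaks was compared with limma. In spleen 548 of 18332 bins (2.99%) passed a Benjamini-Hochberg adjusted p of 0.05, 1.75% of all bins higher and 1.24% lower. Of the 8372 bins that held a common site, 2200 (26.3%) were tested. Among these 37 rose and 27 fell, or 2.91%, close to the share in all bins. The count was sensitive to the settings: 117 bins with a common site passed with 10000 top peaks and 134 with all peaks. It was 116 without unstimulated replicate 1, 109 without stimulated replicate 1 and 99 without stimulated replicate 2. With replicate number in the model the count was 0. The share in all bins is given here only for the reported setting, so the likeness to all bins holds for that setting alone.

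Among bins with a common site, coverage rose at chr11:117680001-117690000, with 44.0%, 48.5% and 49.1% in stimulated and 19.8%, 5.09% and 14.8% in unstimulated spleen (limma adjusted p = 0.014). At chr13:53070001-53080000 NIPBL peaks covered 30.6%, 28.2% and 33.3% of the bin in stimulated spleen and 0% in all 3 unstimulated libraries (limma adjusted p = 0.00417). At chr15:80520001-80530000 they covered 27.8%, 28.0% and 26.6% in stimulated spleen and again 0% in unstimulated spleen (limma adjusted p = 0.00195). The groups were far apart in these 3 bins, and each stayed called with any 1 library left out. With replicate number in the model, however, 0 of the 10 called bins named here and below stayed called. The call at chr13:53070001-53080000 was lost with all deposited peaks (adjusted p = 0.0858), and that at chr15:80520001-80530000 with 10000 top peaks (0.0776). The bin chr7:148270001-148280000, with a mean of 23.4% in stimulated against 1.61% in unstimulated spleen, was likewise called with any 1 library left out, but not with 10000, 40000 or all peaks (adjusted p = 0.679, 0.133 and 0.0805).

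The largest difference among the called bins with a common site was not stable. At chr4:133680001-133690000 coverage was 36.3%, 58.8% and 51.9% in stimulated and 14.2%, 11.8% and 14.4% in unstimulated spleen (limma adjusted p = 0.0341). The adjusted p was 0.0843, 0.124 and 0.105 without unstimulated replicate 1, 2 or 3, and 0.0527 and 0.102 without stimulated replicate 2 or 3. With 10000 top peaks the difference turned to −1.61 points.

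Coverage fell at chr17:71190001-71200000, with 2.89%, 2.70% and 2.76% in stimulated and 18.4%, 18.1% and 19.8% in unstimulated spleen (limma adjusted p = 0.00729). At chr7:26020001-26030000 no stimulated library had a top peak, while unstimulated libraries covered 16.9%, 13.8% and 19.4% (limma adjusted p = 0.0117). Both were called with any 1 library left out. At chr17:71190001-71200000 the call was lost with 40000 and all peaks (adjusted p = 0.459 and 0.791). At chr7:26020001-26030000 it was lost with 10000 and 40000 peaks (0.323 and 0.53), and with all deposited peaks the difference turned to 1.06 points. The largest decrease, at chr5:115630001-115640000, had 4.44%, 0% and 0% in stimulated and 14.7%, 21.0% and 26.0% in unstimulated spleen (limma adjusted p = 0.0393). It was lost without stimulated replicate 1, 2 or 3 (adjusted p = 0.0611, 0.107 and 0.109) and without unstimulated replicate 2 or 3 (0.128 and 0.0637). Coverage also fell at chr8:73270001-73280000, with a mean of 4.84% in stimulated against 21.2% in unstimulated spleen, and at chr11:99010001-99020000, with 0% against 14.9%. Leaving out stimulated replicate 1, 2 or 3 ended both calls, with adjusted p-values of 0.0686, 0.0677 and 0.0761 for chr8 and 0.0517, 0.0566 and 0.0564 for chr11. Without unstimulated replicate 3 the p at chr8 was 0.056, and without unstimulated replicate 2 that at chr11 was 0.0647. With all deposited peaks the difference at chr8:73270001-73280000 turned to 9.87 points.

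Windows of 1 kb centred on the sites, a setting added after the data were seen, were compared in the same way. Of 7014 windows tested over all sites, 88 (1.25%) rose and 162 (2.31%) fell in stimulated spleen. Of 1174 tested windows on common sites, 22 rose (1.87%) and 20 fell (1.70%). At chr15:80524645-80525400, which lies in the called bin chr15:80520001-80530000, 81.7%, 77.1% and 78.2% of the window was covered in stimulated and 0% in all unstimulated libraries (limma adjusted p = 0.00372). At chr12:80713552-80714526 coverage was 91.9%, 69.2% and 77.9% in stimulated and 0% in unstimulated libraries (limma adjusted p = 0.00698). In the other direction, chr17:57387550-57388279 had 0% in all stimulated and 100%, 96.2% and 100% in unstimulated libraries (limma adjusted p = 0.00253). The window at chr11:99016226-99017022, inside the called bin chr11:99010001-99020000, had 0% in stimulated and 76.4%, 79.1% and 100% in unstimulated libraries (limma adjusted p = 0.00725). Each of these 4 windows was called with any 1 library left out. With replicate number in the model, 0 of the 10 called windows with the largest differences stayed called. The window with the largest increase, chr11:3435194-3435699, had 77.6%, 62.2% and 100% in stimulated and 0% in unstimulated libraries (limma adjusted p = 0.0216). There the adjusted p was 0.0566 without stimulated replicate 1, and 0.0537, 0.0687 and 0.0612 without unstimulated replicate 1, 2 or 3.

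In CH12F3, 0 of 12315 NIPBL bins (0%) passed in limma, and 0 of those with a common site. With 2 against 2 libraries the test did not detect changes implanted in simulated data, so the 0 does not show that NIPBL was unchanged. At an unadjusted p under 0.05, 26 of 1558 bins with a common site were higher (1.67%, against 4.15% of all bins) and 99 lower (6.35%, against 6.31% of all bins) in stimulated cells. The share of lower bins was close to that of all bins. The smallest adjusted p at a common site was 0.353, at chr13:55570001-55580000, with 0% in both stimulated and 32.6% and 25.3% in both unstimulated libraries.

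Rad21 coverage of bins is described without being read as a result, since the rule used these lists. In spleen 637 of 22603 bins (2.82%) passed in limma, 0.128% higher and 2.69% lower. Of 8254 tested bins with a common site, 8 were higher and 43 lower after stimulation. Together they were 0.618% of these bins, against 4.09% of bins with other sites only. The sum of 51 became 0 without any 1 of the stimulated replicates, and 17, 26 and 129 without unstimulated replicate 1, 2 or 3. In CH12F3 6 of 22898 bins (0.0262%) passed, 0 of them with a common site (12 without unstimulated replicate 2, and 1 without stimulated replicate 4 or i3CBEs replicate 3). In i3CBEs against stimulated CH12F3 94 of 22898 passed (0.411%, with 0.179% higher and 0.231% lower). Of 8278 tested bins with a common site, 2 were higher and 8 lower. These 10 were 0.121%, against 0.415% of bins with other sites only. That 10 became 73 without stimulated CH12F3 replicate 4, and 0 without stimulated CH12F3 replicate 1 or 3. It became 3 without stimulated CH12F3 replicate 2 or unstimulated CH12F3 replicate 1 or 3, and 1 without i3CBEs replicate 2 or 3. At an unadjusted limma p under 0.05, 30 bins with a common site were higher in i3CBEs and 1990 lower (all bins, 400 and 4286). The median difference was −1.655 points in bins with a common site and −1.22 in all bins. Median peak width at common sites was 286 to 322 bp in i3CBEs and 377 to 534 bp in stimulated CH12F3, and its part was not tested. The bin with the largest Rad21 decrease in spleen, chr10:96080001-96090000, had 7.12%, 0% and 24.6% in stimulated and 93.5%, 96.0% and 88.9% in unstimulated libraries.

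Common sites were spread over all 19 autosomes, at unequal density. Chromosome 11 had the most per length, with 780 sites or 6.40 per Mb, and chromosome 16 the fewest, with 263 or 2.67 per Mb. Chromosome 11 also had the most sites of any kind per Mb (33.5). Of its sites 19.1% were common, near the 18.4% of the whole list. Chromosome 16 also had the lowest share of its sites in common, 9.65% of 2726, and chromosome 19 the highest, 23.8%. That low share went with 27.7 sites of any kind per Mb on chromosome 16. Its density of common sites was near that of chromosomes 12 (2.81 per Mb) and 3 (2.83 per Mb). Neighbouring common sites were a median of 93.5 kb apart (5th to 95th percentile 4.55 to 1087 kb), and 10.0% of neighbouring pairs were under 10 kb apart. At the other end, 228 of 8810 pairs were over 2 Mb apart, and the longest stretch without a common site was 12.6 Mb, between 12725603 and 25370725 on chromosome 15, where 11 other sites lay. The densest window of 1 Mb, chr8:19000001-20000000, held 33 common sites among 103 sites.

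A region of 400 kb on chromosome 12 was taken to hold the IgH locus from its known position in mm9. With no annotation of that build, which of its sites lie in the locus and which in its flanks was not worked out. The region held 5 common sites among 23 sites in all. They were chr12:114340556-114341006, chr12:114384333-114384651, chr12:114393856-114394401, chr12:114456157-114456742 and chr12:114458136-114459090. The last pair had centres 2163 bp apart. Beyond them no common site followed for 266.88 kb, until chr12:114725971-114726286, although 14 other sites lay in between, with peaks in 2 to 14 of the other lists (median 8).

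The strongest of the 5 was chr12:114458136-114459090, with a fold of 17.8, 27.1 and 18.0 in stimulated and 32.2, 25.1 and 11.3 in unstimulated spleen. It had 15.8, 16.0 and 15.8 in i3CBEs, 24.4, 19.2, 11.9 and 20.0 in stimulated CH12F3, and 18.0, 15.2 and 19.0 in unstimulated CH12F3. The groups overlapped at this site, except that the i3CBEs values lay below those of stimulated spleen. Its neighbour chr12:114456157-114456742 had 11.3, 14.4 and 13.8 in stimulated and 14.5, 11.1 and 12.8 in unstimulated spleen, and 8.26 to 14.2 in the lymphoma lists. At chr12:114340556-114341006 the folds were 7.83, 22.9 and 10.5 in stimulated and 28.4, 22.1 and 12.9 in unstimulated spleen. The lymphoma lists had 8.93, 7.15 and 8.15 in i3CBEs, 20.5, 10.9, 10.8 and 11.0 in stimulated CH12F3, and 13.8, 8.43 and 16.4 in unstimulated CH12F3 at that site.

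**Figure D5:**
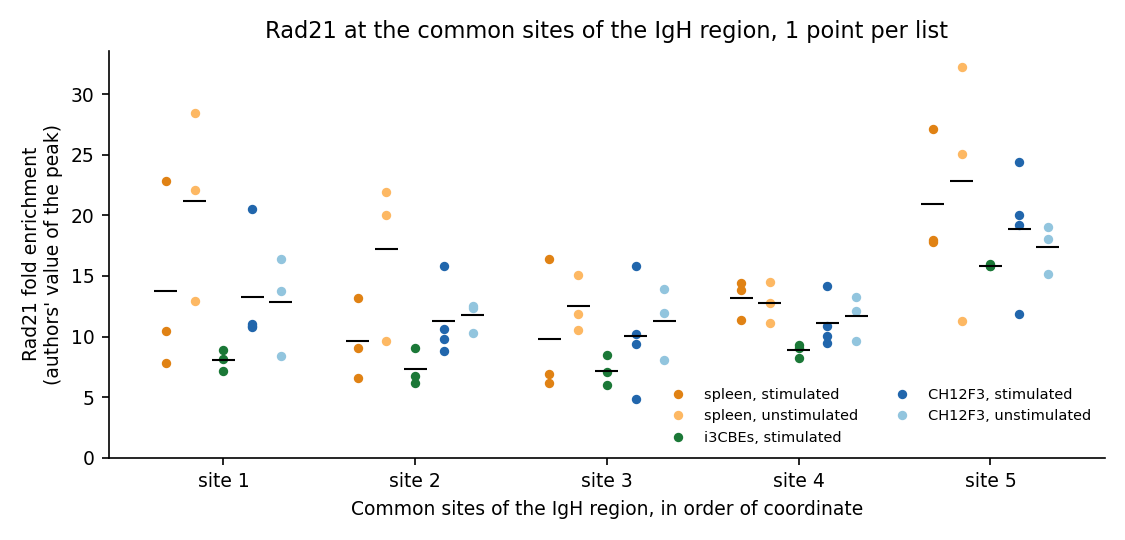
Rad21 fold enrichment (authors' value of each peak, vertical axis from 0) at the 5 common sites of the IgH region in order of coordinate, with 1 point per list and a line at the group mean. Site 5 is the strongest in every group mean, and at sites 1 to 4 the groups overlap widely except that i3CBEs lie at or below 9.28.

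All 5 sites lay in a deposited NIPBL peak in all 10 libraries, and they differed in whether that peak was a top peak. The centre of chr12:114393856-114394401 lay in a top NIPBL peak in all 6 splenic libraries and in replicate 1 of both CH12F3 groups, 8 of 10 libraries. The overlapping NIPBL peak had a fold of 9.24, 7.75 and 8.93 in stimulated and 19.5, 21.8 and 18.5 in unstimulated spleen, and these are values of each list's own. Its 1 kb window was wholly covered in all 6 splenic libraries, so coverage could show no difference there. In the 10 kb bin around it, coverage was 20.1%, 36.7% and 41.5% in stimulated and 19.8%, 20.8% and 17.7% in unstimulated spleen, which limma did not call (adjusted p = 0.42). Of the other 4 sites, chr12:114340556-114341006 and chr12:114456157-114456742 each lay in a top peak in 1 library, unstimulated splenic replicate 1, and 2 in none. The NIPBL folds at these 4 sites ran between 3.32 and 11.5.

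The highest Rad21 folds at common sites were far outside the range of the rest. In any Rad21 list 73 common sites passed 50-fold, 10 passed 100-fold and 5 passed 1000-fold. At chr12:3109860-3110129 the Rad21 fold lay between 3251 and 29742 in the 16 lists (median 14232), and the NIPBL fold between 3831 and 12870 in the 10 NIPBL lists. The next in mean percentile were chr6:103599036-103599294, chr9:35112793-35113183, chr2:98505034-98505396 and chr2:98502384-98503157. All 10 sites over 100-fold had a top NIPBL peak in all 10 libraries, against 88 of the other 8819 common sites. Both antibodies had peaks there in every cell type and state in which each was mapped, and NIPBL was not mapped in i3CBEs. No list of artefact-prone regions was applied, and the part of such regions in these values was not tested. Without these 10 sites the mean NIPBL share of common sites was 7.80%.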

How the data were processed

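Peak lists of 26 ChIP-seq libraries were used, 16 for Rad21 and 10 for NIPBL. Bowtie2, MACS2 and the build mm9 are named in the submitters' processing notes; versions are not given in the sources. For each peak the authors deposited a fold enrichment (ratio), a −log10 p-value, a −log10 q-value and a score. Peak names inside the lists show which control was used for Rad21 and for NIPBL in CH12F3 replicate 2, and none for the rest of the NIPBL lists. One label field calls the CH12F3 and i3CBEs Rad21 samples splenic; titles and source names were followed.

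Members and lists were chosen with earlier results of these data known. In each list the 20000 autosomal and sex-chromosome peaks with the highest −log10 p-value were the top peaks. A site carried NIPBL when its centre lay in one. Libraries were compared by exact permutation tests (two-sided, scipy 1.17.1), adjusted over 23 tests by the Benjamini-Hochberg method. Bins covered in 2 or more libraries were tested with limma 3.58.1 (trend; R 4.3.3), CH12F3 and i3CBEs Rad21 libraries in 1 fit, and the test was checked on simulated data. Named sites were the 10 with the highest mean Rad21 percentile, those of the IgH region and its neighbours, the 5 per direction with the largest rank difference between spleen and lymphoma lists, the 5 called bins per direction with the largest difference (or, with none called, the 3 lowest p-values), and those at the width limits. Same-numbered Rad21 CH12F3 libraries deviated together (correlations over bins 0.417, 0.642 and 0.371), and with replicate number in the model 0 bins with a common site passed, as without it. Python 3.11.15, numpy 2.4.6, pandas 2.3.3, statsmodels 0.14.6 and matplotlib 3.10.9 were used. Genes, promoters, CTCF motifs and sequences of the sites were not analysed here.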

Additional observations from a re-analysis of the deposited data

Results flagged for a closer look

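Of the values given here, 3 show a stimulated CH12F3 Rad21 library far from the other 3 of its group among 33 values examined in groups of 4. Chance gives such a gap in about 1 in 20 groups. In each case the library was replicate 1 and the value a fold, so the 3 are not independent. The median fold of all its peaks of 200 bp or wider was 6.18, against 4.24, 3.62 and 5.70 in replicates 2, 3 and 4. By percentile among those peaks, the common sites had a median of 89.2 in replicate 1 and 88.9, 92.6 and 82.5 in the others. The median fold of the common sites was 20.0 in replicate 1 and 12.7, 11.3 and 11.9 in the others, so that the gap made up 0.834 of the group's range. At chr12:114340556-114341006, in the IgH region, replicate 1 had 20.5 and the others 10.9, 10.8 and 11.0 (0.973 of the range). At chr14:46392077-46392773, ranked lower in spleen, it had 35.9 and the others 20.2, 20.7 and 21.2 (0.936 of the range). All 3 shares are above the critical value of Dixon's test.

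The last is a tested difference between cell types. The excess of NIPBL at common sites ranked higher over those ranked lower for Rad21 in spleen was larger by 7.16 points in splenic than in CH12F3 libraries (two-sided exact permutation p = 0.00952). Top NIPBL peaks also covered different shares of the genome, up to 0.683% of bases in 1 CH12F3 library and as little as 0.205% in another, and the part of coverage in this difference was not tested.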

How the results depend on the processing

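The number of common sites was 16549 with a minimum width of 100 bp, 1331 with 300 bp and 4838 when at least 50% of a site had to be covered; it was 8831 to 9872 with 1 library left out. The excess of NIPBL at common over other sites was −0.309 points with 10000 top peaks and −0.0445 with any overlap, and 0.428 to 0.623 with 1 library left out. NIPBL in stimulated minus unstimulated spleen turned to 0.0793 points with 40000 top peaks and 0.412 with any overlap, and ran −0.865 to 0.976 with 1 library left out; in CH12F3 the same range was −8.40 to 0.544. With same-numbered replicates as a block these differences were −0.215 and −3.93 points (exact permutation p = 1 and 0.5). The 3 quartile differences and the split by rank in spleen against the lymphoma lists kept their direction and side of the threshold under every alternative run. The stimulation split kept its direction, and with 3 against 3 libraries its p could not pass 0.05 under any. The spleen split ran 5.13 to 17.7 points over the other settings and 6.36 to 7.85 with 1 library left out, the stimulation split 3.35 to 12.3 and 4.73 to 4.995.

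Splenic NIPBL bins with a common site that passed in limma, 64 as reported, were 117 with 10000 top peaks, 134 with all peaks, 0 with the replicate block, 42 as 1 kb windows, and 72 to 116 with 1 library left out. Of the 10 such bins named, 0 were called with the replicate block, 5 with 40000 top peaks and 2 with all peaks. For Rad21 in spleen the 51 became 0 with 10000 or 40000 top peaks, 1 with all peaks, 0 without the filter on covered libraries, 68 with the replicate block, and 0 to 129 with 1 library left out. For Rad21 in CH12F3 the 0 became 1 with 10000 top peaks and ran 0 to 12 with 1 library left out. For i3CBEs the 10 became 40 with 10000 and 5 with 40000 top peaks, 3 with all peaks, 18 without the filter, 2 with the replicate block, and 0 to 73 with 1 library left out. For NIPBL in CH12F3 it was 0 under each. Same-numbered libraries did not deviate together in spleen (correlations −0.0992 to 0.0267) or in i3CBEs, so the block there tests a shared number only. The cause of these changes was not tested. The planned motif alternatives were not run. Reversed differences of named bins were −1.61 points at chr4:133680001-133690000 with 10000 top peaks, and 1.06 at chr7:26020001-26030000 and 9.87 at chr8:73270001-73280000 with all peaks. Depth is unknown for every list.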
